A study of Saccharomyces cerevisiae with 20 samples.

Results

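A set of 10 genes of Saccharomyces cerevisiae that help to fold tubulin, or to bring it into dimers, was followed along the cell cycle in a strain lacking SET1 (set1Δ) and in the wild type (WT). They were taken by name from the deposited tables of 6532 features, where each of the 10 had a row of its own. Of these, 5 are genes of tubulin cofactors and their regulators, namely RBL2 (YOR265W), CIN1 (YOR349W), CIN2 (YPL241C), CIN4 (YMR138W) and PAC2 (YER007W). The other 5 encode subunits of prefoldin, namely GIM3 (YNL153C), GIM4 (YEL003W), GIM5 (YML094W), PAC10 (YGR078C) and YKE2 (YLR200W). The assay was PAT-seq, which reads the 3′ ends of polyadenylated RNA and gives, for each gene and library, a read count, a count of reads that carry a poly(A) tail, and the mean length of those tails. The set1Δ strain, labelled delta_set1 with no parent strain named, and WT, labelled W303a, gave 10 libraries each. In either strain 1 library came from an unsynchronised culture and 9 from cells held in G1 with the mating pheromone α-factor and then released from it, taken from 0 to 120 min in steps of 15 min. Both strains grew in YPD at 30 °C, and the drug benomyl, which the title of the series names, is in no label. Each strain and time is 1 library, no label speaks of a second culture, and p-values here measure the spread between time points only.

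Tubulin reaches its native state in steps. Prefoldin, a complex of different small subunits, catches newly made tubulin and actin chains and hands them to the cytosolic chaperonin CCT. The cofactors then take over the folded monomers: Rbl2, the yeast cofactor A, binds β-tubulin, Pac2, the cofactor E, binds α-tubulin, and Cin1, the cofactor D, works with the small GTPase Cin4 and its GTPase-activating protein Cin2, the cofactor C, in forming the α/β dimer. Loss of many of these genes is known to make yeast hypersensitive to benomyl.

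Of the promoters, those of CIN2 and PAC2 are shown first, for the motifs they hold. The read counts of both genes changed along the time course in at least 1 strain. Those of CIN4 and YKE2 changed too, in WT, and their windows held none of the motifs searched. In the 300 bases before the start codon, CIN2 held the letters ACGCGT of an MCB, the element bound by the G1/S factor MBF, at 85 to 80 bases before the codon. This element was in 3.48% of 6001 promoter windows of this length. PAC2 held TGAAACA, the pheromone response element bound by Ste12, on the opposite strand at 56 to 50 bases before the codon, and 7.20% of windows held it. Both strands were searched, and positions count backwards from the start codon. The sequences are those of assembly R64, to which the build name sacCer3 of the submitters refers, run 5′ to 3′ on the strand of the gene, from 200 to 41 bases before the codon, with the match in capitals. CIN2 and PAC10 are on the minus strand and the other genes shown on the plus strand.
CIN2, chrXVI:96299-96458: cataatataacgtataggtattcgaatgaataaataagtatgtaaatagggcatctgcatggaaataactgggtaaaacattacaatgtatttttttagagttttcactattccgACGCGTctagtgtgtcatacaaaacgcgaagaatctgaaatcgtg
PAC2, chrV:164327-164486: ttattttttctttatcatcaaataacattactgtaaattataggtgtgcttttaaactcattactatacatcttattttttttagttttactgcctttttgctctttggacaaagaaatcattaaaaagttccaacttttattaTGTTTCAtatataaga

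The Reb1 site CGGGTAA, bound by a general regulatory factor that clears nucleosomes from promoters, was the 1 motif found in more than 1 of the 10 genes, RBL2, CIN1 and PAC10, and in 7.90% of windows. The 90 bases from 190 to 101 before the start codon are given for these 3 genes, with the site in capitals, which lies on the opposite strand in RBL2.
RBL2, chrXV:820264-820353: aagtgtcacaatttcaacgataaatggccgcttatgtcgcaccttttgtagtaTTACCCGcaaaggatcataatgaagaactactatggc
CIN1, chrXV:989599-989688: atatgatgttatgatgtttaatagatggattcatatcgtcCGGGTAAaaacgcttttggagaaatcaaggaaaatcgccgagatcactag
PAC10, chrVII:640472-640561: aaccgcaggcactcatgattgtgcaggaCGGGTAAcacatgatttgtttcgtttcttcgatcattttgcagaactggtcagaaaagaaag

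The letters CNCGAAA of an SCB (14.6% of windows), GGTGGCAAA of an Rpn4 site (1.22%), TTCNNGAA of a heat shock element (13.1%) and GTAAACA of a forkhead site (7.00%) were in none of the 10 windows. No gene held matches to more than 1 motif.

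Libraries held 476565 to 2413354 reads, with a median of 1524255, and between 32.2% and 91.7% of the reads had a poly(A) tail. The lowest shares were those of WT at 105 min (51.3%) and 120 min (32.2%), and the highest that of WT at 30 min. SET1 (YHR119W) averaged 9.77 ± 2.85 CPM in set1Δ and 44.1 ± 14.7 CPM in WT (SD, n = 10 each), where CPM are counts divided by the TMM-scaled size of the library. The TMM factors of WT at 105 and 120 min, 0.804 and 0.628, were the lowest of all libraries, which raises CPM there. The 10 most counted features held 16.5% and 21.6% of the reads in these libraries, the highest such shares. The G1 cyclin gene CLN2 first peaked at 15 min in set1Δ (530 CPM) and at 30 min in WT (228 CPM), and peaked again at 90 min in both, with 339 CPM in set1Δ and 328 CPM in WT. SIC1, an inhibitor of the cyclin-dependent kinase that is expressed at the end of mitosis, was highest at 75 min in both strains. The mitotic cyclin gene CLB2 had at most 5.23 CPM and gave no usable timing.

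The mRNAs of the prefoldin subunits were more abundant than most of those of the cofactors. Levels are CPM without division by gene length, since a PAT-seq read is meant to stand for the 3′ end of a transcript. Where the reads without a tail lie cannot be seen here. They count reads with and without a tail, and only 37.9% of YKE2 reads and 30.6% of CIN4 reads had one. By this measure YKE2, the yeast prefoldin subunit 6, was the highest in both strains, at 285 ± 67.5 CPM in set1Δ and 450.0 ± 183 CPM in WT (SD, n = 10 each). GIM3, subunit 4, followed with 125 ± 29.1 CPM in set1Δ and 117 ± 26.4 CPM in WT, and GIM4, subunit 2, with 101 ± 25.1 and 136 ± 28.9 CPM, so that their order differed between strains. PAC10, subunit 3, RBL2 and GIM5, subunit 5, formed the next group, at 75.4 ± 12.0, 71.0 ± 9.60 and 60.3 ± 9.45 CPM in set1Δ and 88.2 ± 13.8, 72.4 ± 15.2 and 72.2 ± 14.1 CPM in WT, with ranges that overlapped. CIN4 and CIN2 had 28.4 ± 6.07 and 26.0 ± 17.5 CPM in set1Δ, against 33.4 ± 22.8 and 28.6 ± 17.9 CPM in WT. PAC2 (16.0 ± 5.56 CPM in set1Δ, 22.3 ± 10.3 CPM in WT) and CIN1 (10.2 ± 1.91 CPM in set1Δ, 13.4 ± 3.09 CPM in WT) were the lowest in all reads. Depth limits these 2 genes most, with 3 to 42 reads a library for PAC2 and 6 to 32 for CIN1 in set1Δ, against 9 to 51 and 7 to 42 in WT. Scaled to poly(A) reads alone, the order was not the same. In the asynchronous libraries GIM4 was above YKE2, with 191 and 157 CPM in set1Δ and 228 and 198 CPM in WT. At 120 min in WT, YKE2 was above GIM4, with 416 and 182 CPM. CIN4 and CIN1 had 18.2 and 15.7 CPM in the asynchronous library of set1Δ, and 10.7 and 24.5 CPM in that of WT.

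**Figure D1:**
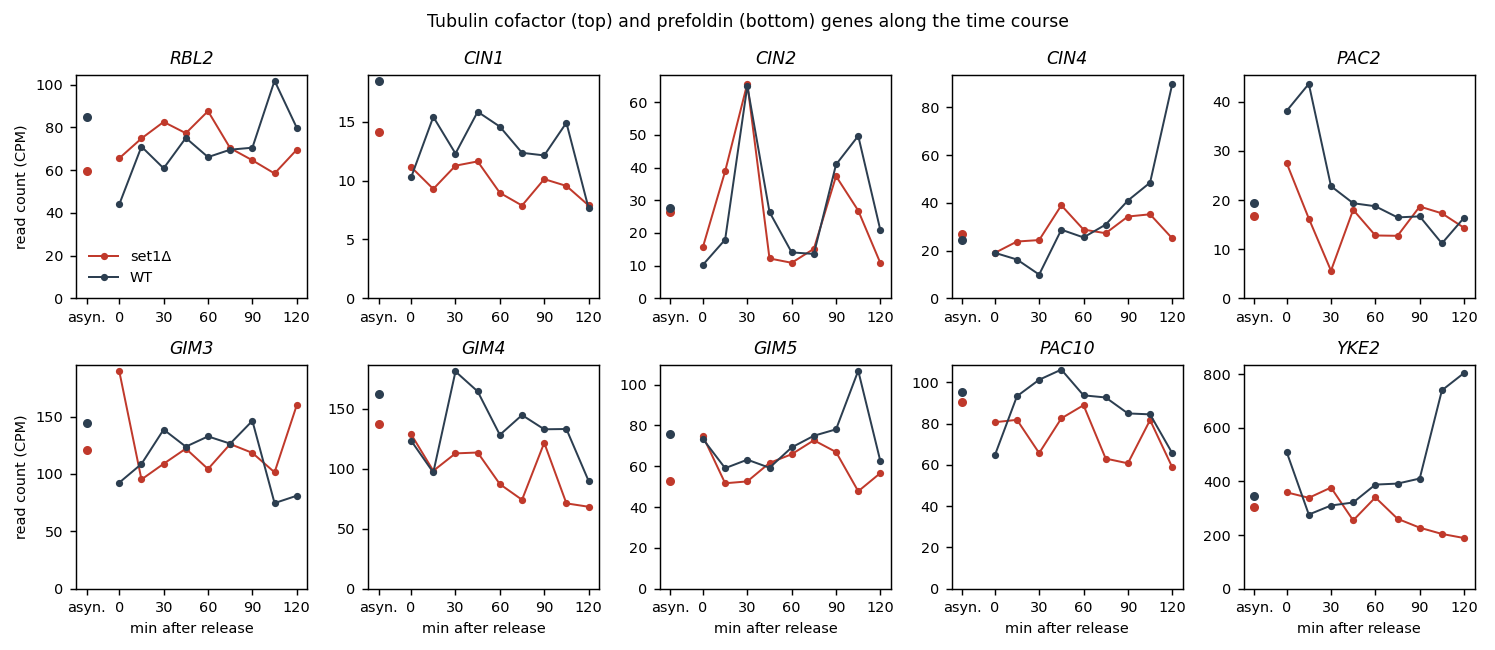
Read counts in CPM (vertical axes, each from 0) of the 5 tubulin cofactor genes (top) and 5 prefoldin genes (bottom) against minutes after release, with the asynchronous library as a separate point at the left (set1Δ red, WT dark; each point is 1 library). CIN2 peaks at 30 min in both strains, and CIN4 and YKE2 are highest at 120 min in WT.

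GIM4 was the 1 member called in the comparison of strains, and it was lower in set1Δ. It lay between 68.2 and 137 CPM in set1Δ, with a median of 105 CPM, and between 89.7 and 181 CPM in WT, with a median of 133 CPM. The ranges overlapped, and GIM4 was lower in set1Δ at 8 of 10 time points, the exceptions being 0 and 15 min. The log2 difference, set1Δ minus WT with time point as a factor, was −0.43 ± 0.12 (SE; edgeR quasi-likelihood adjusted p = 0.0176). Its size was nearly the same in poly(A) reads alone (−0.41 ± 0.12, edgeR adjusted p = 0.0133). The call was lost without 75 min (edgeR adjusted p = 0.0533), where the strains were farthest apart, with 73.9 CPM in set1Δ and 145 CPM in WT. Over all 5060 features tested, 8.44% were called higher and 10.5% lower in set1Δ, so that 1 of 10 members lower is close to the background.

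The other prefoldin genes did not pass the test. YKE2 had the largest difference in size, −0.59 ± 0.21 (edgeR adjusted p = 0.0596), with 189 to 377 CPM in set1Δ (median 282) and 276 to 805 CPM in WT (median 390). The widest gaps were at 105 and 120 min. YKE2 had 204 CPM at 105 min and 189 CPM at 120 min in set1Δ, against 741 and 805 CPM in WT, and without both times its difference was −0.27 (edgeR adjusted p = 0.111). GIM5 had −0.25 ± 0.12 and PAC10 −0.23 ± 0.11 (edgeR adjusted p = 0.157 and 0.152), lower in set1Δ at 8 and 9 of 10 time points. GIM3 had 0.08 ± 0.15 (edgeR adjusted p = 0.742). It was lower in set1Δ at 7 of 10 time points and higher at 0, 105 and 120 min, with 190, 101 and 160 CPM in set1Δ and 92.4, 74.5 and 81.0 CPM in WT.

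Among the cofactor genes 0 of 5 were called, and 2, CIN1 and PAC2, had an unadjusted edgeR p below 0.05, both lower in set1Δ. Over all 5060 features 916 were lower and 795 higher by that measure. CIN1 had −0.42 ± 0.16 (edgeR adjusted p = 0.0741) and PAC2 −0.42 ± 0.19 (edgeR adjusted p = 0.140), each lower in set1Δ at 8 of 10 time points. For PAC2 the widest gaps were at 15 and 30 min, with 16.2 and 5.63 CPM in set1Δ and 43.6 and 22.8 CPM in WT, but the value of 5.63 CPM rests on 3 reads. PAC2 passed without 105 and 120 min (−0.54, edgeR adjusted p = 0.0467). CIN2 (−0.16 ± 0.19), CIN4 (−0.09 ± 0.21) and RBL2 (−0.02 ± 0.13) had differences smaller than their standard errors. Over the 10 members the median log2 difference was −0.24, beside −0.01 over all features tested.

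**Figure D2:**
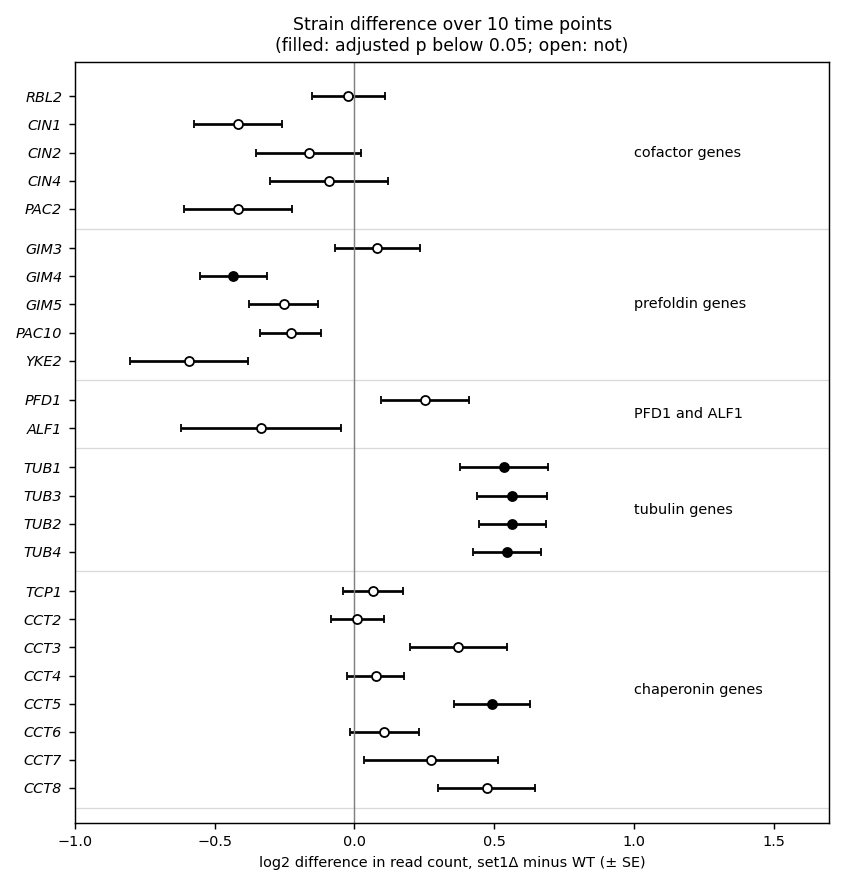
Log2 difference in read count, set1Δ minus WT, with its SE (horizontal axis) for the 10 genes and for other genes of tubulin folding (rows), fitted over 10 time points per strain. Filled points have an edgeR adjusted p below 0.05: GIM4 lies left of 0, the 4 tubulin genes and CCT5 right of it.

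Other genes of the pathway were counted in the same fit. The prefoldin subunit 1 gene PFD1 had 0.25 ± 0.16 (edgeR adjusted p = 0.276) and ALF1, the cofactor B gene, −0.33 ± 0.29 (edgeR adjusted p = 0.439), and neither passed. All 4 tubulin genes passed as higher in set1Δ, with a median log2 difference of 0.55. Of the 8 genes of the chaperonin CCT 1 passed, CCT5, at 116 ± 21.8 CPM in set1Δ and 83.2 ± 22.9 CPM in WT (0.49 ± 0.14, edgeR adjusted p = 0.0181). Over all features tested 8.44% were called higher, so that 1 of 8 is close to the background.

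Within the 6 prefoldin mRNAs, PFD1 included, YKE2 made up 40.9% ± 5.69 of their summed CPM in set1Δ and 48.6% ± 11.6 in WT (SD, n = 10 libraries each). GIM3 made up 18.2% ± 4.16 in set1Δ and 13.5% ± 3.96 in WT, and GIM4 14.5% ± 2.69 and 15.4% ± 4.08. The share of YKE2 lay between 32.3% and 50.2% in set1Δ, and reached 71.8% in a WT library. These shares count reads with and without a tail, and they were not tested.

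Along the 9 time points after release, CIN2 was the member with a repeated rise and fall in both strains. In set1Δ it had 15.7 CPM at 0 min, 38.9 at 15, 65.7 at 30, 12.2 at 45, 10.9 at 60, 15.2 at 75, 37.4 at 90, 26.8 at 105 and 10.8 CPM at 120 min. In WT the same times gave 10.3, 18, 65.0, 26.4, 14.1, 13.6, 40.9, 49.7 and 20.8 CPM. Both strains were thus highest at 30 min and rose again to 90 or 105 min, and set1Δ was above WT at 0 and 15 min and below it at 45, 105 and 120 min. The highest library exceeded the lowest 6.11-fold in set1Δ and 6.33-fold in WT, where the lowest held 15 CIN2 reads in set1Δ and 7 in WT. The change over time passed a test of 5 spline terms in set1Δ and in WT (edgeR quasi-likelihood adjusted p = 0.0116 and 0.00389), and in poly(A) reads alone (0.00975 and 0.00625, edgeR adjusted p). The call in set1Δ was lost without 45, 60, 75 or 90 min, with edgeR adjusted p up to 0.125, and that in WT without 60 min (0.0547). With a stiffer spline of 3 degrees of freedom neither passed (0.973 in set1Δ and 0.833 in WT). The profiles of CIN2 were not called different between strains (edgeR adjusted p = 0.336).

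In set1Δ, CIN2 was the 1 member whose change over time passed, while in WT 4 did, CIN2, PAC2, CIN4 and YKE2. Of all 5038 features in this fit 15.7% passed in set1Δ and 39.3% in WT, so that 4 of 10 is the share of the background. PAC2 was highest at 0 min in set1Δ and at 15 min in WT. In set1Δ it had 27.5 CPM at 0 min, 16.2 CPM at 15 min and 5.63 CPM at 30 min, the last from 3 reads. WT had 38.1, 43.6 and 22.8 CPM at these times. After 30 min PAC2 reached at most 18.7 CPM in set1Δ, at 90 min and above its value at 15 min, and 19.4 CPM in WT. Its edgeR adjusted p was 0.360 in set1Δ and 0.0205 in WT, and the call in WT was lost without 15, 45 or 75 min (up to 0.150), without 105 and 120 min (0.0629) or in poly(A) reads alone (0.0809). CIN1, RBL2, GIM3, GIM4, GIM5 and PAC10 passed in neither strain, and their highest library exceeded their lowest by 1.48-fold to 1.99-fold in set1Δ and by 1.65-fold to 2.31-fold in WT.

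CIN4 and YKE2 were the members whose course over time was called different between strains, and they had the lowest shares of reads with a tail. CIN4 had 19.0 CPM at 0 min, 38.9 CPM at 45 min and 25.1 CPM at 120 min in set1Δ, against 19.1, 28.7 and 89.7 CPM in WT, where 30 min was lowest at 9.95 CPM. YKE2 had its highest WT libraries at 105 and 120 min, as given above, while in set1Δ it was highest at 30 min (377 CPM) and lowest at 120 min. The low TMM factors of these 2 WT libraries raise their CPM. Before this scaling, WT had 348 YKE2 reads of 668987 at 0 min, 323 of 952283 at 15 min and 542 of 1357630 at 90 min. At 105 and 120 min WT had 596 of 1000773 and 736 of 1454094, against 342 of 1689439 and 263 of 1297278 in set1Δ. The change over time of CIN4 and YKE2 passed in WT (edgeR adjusted p = 1.75e-04 for CIN4 and 6.39e-04 for YKE2) and not in set1Δ (0.344 and 0.0624). The difference of profiles between strains passed for these 2 of the 10 members, for CIN4 with an edgeR adjusted p = 0.0202 and for YKE2 with an edgeR adjusted p = 0.00129, while 12.5% of all features passed. Without 105 and 120 min neither gene passed in the difference of profiles (0.644 and 0.374, edgeR adjusted p) or in the change over time in WT (0.104 and 0.186). These 2 times were left out of both strains, and the calls of profile differences over all features fell to 136, against 628 with them. With 1 time point left out, YKE2 passed in 9 of 9 fits of the profiles, with edgeR adjusted p up to 0.0152. Without 60, 75 or 120 min alone, CIN4 did not pass (0.0512 to 0.419).

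Only 30.6% of the 892 CIN4 reads and 37.9% of the 10426 YKE2 reads had a poly(A) tail, against a median of 83.4% over 5060 features with at least 200 reads, of which 4.11% and 6.38% had a lower share. In each of the 20 libraries both genes lay below the share of the whole library. At 120 min in WT, the library with the fewest tailed reads, 6.10% of 82 CIN4 reads (95% Wilson interval 2.63% to 13.5%) and 25.1% of 736 YKE2 reads (22.1% to 28.4%) had a tail. These intervals cover counting error only, since no molecular identifiers are mentioned. Scaled to poly(A) reads alone, CIN4 had 12.1 CPM at 120 min in set1Δ and 11.2 CPM in WT, the latter from 5 reads. Its highest WT value there was 21.4 CPM at 105 min, from 10 reads, against 4.27 CPM at 0 min, from 2 reads. Neither the change of CIN4 over time in WT (edgeR adjusted p = 0.174) nor its difference of profiles (0.727) passed in poly(A) reads. YKE2 kept the late separation in poly(A) reads, with 102 and 113 CPM at 105 and 120 min in set1Δ and 438 and 416 CPM in WT. Its change over time in WT (edgeR adjusted p = 0.0381), its difference of profiles (0.0398) and its strain difference (−0.69 ± 0.21, edgeR adjusted p = 0.0268) all passed there. GIM4 stood at the other end, with tails on 98.0% of its 3675 reads, and the remaining 7 members ranged from 67.8% (GIM5) to 94.9% (PAC2).

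**Figure D3:**
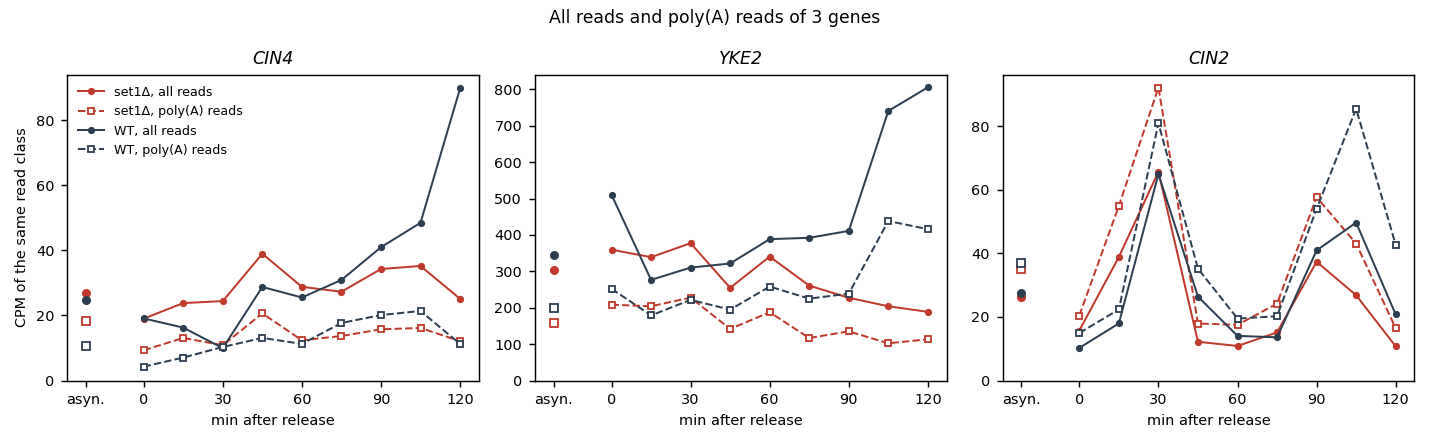
CPM of all reads (filled points, solid lines) and CPM of poly(A) reads, scaled to the poly(A) reads of each library (open squares, dashed lines), of CIN4, YKE2 and CIN2 against minutes after release, with the asynchronous library at the left of each panel (set1Δ red, WT dark). The peak of CIN4 at 120 min in WT is seen in all reads (89.7 CPM) and not in poly(A) reads (11.2 CPM, from 5 reads). The poly(A) reads of CIN4 in WT are highest at 105 min (21.4 CPM, from 10 reads). YKE2 is apart late in both read classes.

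The state of arrest was described by the log2(CPM + 1) at 0 min minus that of the asynchronous culture, with 1 library on each side and therefore no test. PAC2 was higher in the arrest in both strains, at 27.5 CPM against 16.7 CPM in set1Δ, a difference of 0.69, and at 38.1 CPM against 19.3 CPM in WT, a difference of 0.94. The counting error alone gave 95% half-widths of 0.63 and 0.70 to these values. YKE2 was also higher in both (0.24 in set1Δ and 0.56 in WT, half-widths 0.16 and 0.18) and CIN2 lower in both (−0.71 and −1.35, half-widths 0.68 and 1.13). GIM3 went apart, with 190 CPM in the arrest and 121 CPM in the asynchronous culture in set1Δ (0.65, half-width 0.24), against 92.4 and 145 CPM in WT (−0.64, half-width 0.39). RBL2 had 0.14 in set1Δ and −0.93 in WT (half-widths 0.37 and 0.55). The median over the 10 members was 0.02 in set1Δ and −0.47 in WT, beside −0.01 and −0.07 over all features tested. The difference between strains in this contrast was not tested.

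Mean poly(A) tails of the members ranged over genes from 21.2 to 37.4 nt in set1Δ and from 20.7 to 38.2 nt in WT. PAC10 had the longest mean tails, 37.4 ± 1.67 nt in set1Δ and 38.2 ± 4.17 nt in WT (SD over 10 libraries each), and YKE2 the shortest, 21.2 ± 2.29 nt in set1Δ and 20.7 ± 3.77 nt in WT. Every PAC10 library had longer tails than every YKE2 library in either strain. RBL2 had 26.1 ± 1.41 nt in set1Δ and 26.2 ± 3.87 nt in WT. Of the 8 members with enough poly(A) reads, 0 passed the limma test of the strain difference and 2 had an unadjusted p below 0.05, CIN2 and GIM3, as did 567 of all 4281 features. CIN2 had 27.7 ± 4.80 nt in set1Δ and 30.4 ± 4.46 nt in WT (n = 10 and 9 libraries), a fitted difference of −2.90 ± 1.21 nt (SE, limma adjusted p = 0.352). GIM3 had 29.7 ± 1.83 nt in set1Δ and 31.8 ± 2.87 nt in WT, a difference of −2.07 ± 0.92 nt (limma adjusted p = 0.364). Of 4281 features tested, 0% were called longer and 0.0934% shorter in set1Δ.

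CIN1 and CIN4 had at least 10 poly(A) reads in 7 WT libraries and were not tested. CIN1 averaged 31.7 ± 4.60 nt in 8 set1Δ libraries and 29.3 ± 4.09 nt in 7 WT libraries, and CIN4 29.3 ± 3.85 nt in 9 and 29.8 ± 2.70 nt in 7. Over time, in a spline common to both strains, 0 of 8 members passed with limma and 4, GIM3, GIM4, PAC10 and YKE2, had an unadjusted p below 0.05. Of all 4283 features 4.27% passed and 977 had an unadjusted p below 0.05. PAC10 had 38.7 nt at 120 min and 34.1 nt at 0 min in set1Δ, against 47.5 and 32.9 nt in WT, and its limma adjusted p was 0.134.

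**Figure D4:**
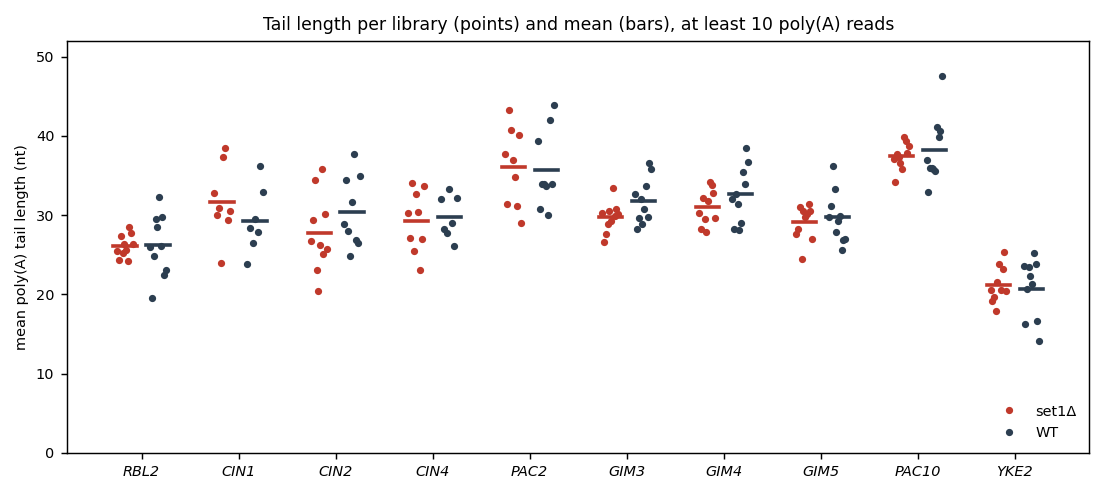
Mean poly(A) tail length in nt (vertical axis) of the 10 genes in each library with at least 10 poly(A) reads of the gene (points) and the mean over libraries (bars), set1Δ red and WT dark. PAC10 lies highest and YKE2 lowest, and the points of both strains overlap for every gene.

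The members did not share 1 pattern over the 20 libraries. Pearson correlations of log2(CPM + 1), given as a description since all points share library depth and scaling, had a median of 0.06 over the 10 pairs of cofactor genes (−0.57 to 0.43), 0.18 over the 10 pairs of prefoldin genes (−0.52 to 0.60) and 0.15 over the 25 mixed pairs. The closest pair was CIN1 with GIM4 (0.75), from the mixed pairs, and the closest prefoldin pair was GIM4 with PAC10 (0.60), while GIM3 and YKE2 ran against each other (−0.52). Of features with a mean of at least 20 CPM, TOS6, named as a target of the G1/S factor SBF, was nearest to CIN2 (r = 0.90, n = 20 libraries). CIN4 was nearest to SNF5, a subunit of the SWI/SNF remodeller (0.95), of whose reads 20.5% had a tail. SNF5 had 103 CPM at 120 min in set1Δ and 272 CPM in WT. YKE2 was nearest to the shared feature of YIL156W-A and YIL156W-B (0.92), which had 156 CPM at 120 min in set1Δ and 560 CPM in WT. Of the reads of this feature 71.4% had a tail. GIM4 and GIM5 were nearest to the ribosomal protein genes RPL42B (0.85) and RPL34A (0.77). PAC2 was nearest to BSD2 (0.86), CIN1 to LSM7 (0.85), PAC10 to RMD8 (0.82) and RBL2 to DPB4 (0.79).

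The place of the genes in the genome bears on how reads could be assigned. CIN2, GIM4 and GIM5 have an intron in the R64 annotation, of 80, 88 and 83 bases. CIN1, PAC2, GIM4 and YKE2 face a gene on the other strand, and the gap between the coding ends is 30 bases for CIN1 and MNE1, 153 for PAC2 and TMA20, 122 for GIM4 and WBP1 and 154 for YKE2 and COQ9. The strand setting of the counting is unknown here, and reads of these neighbours could be mixed. YKE2 lies on chromosome XII (549012 to 549356, 114 codons before the stop), CIN4 on chromosome XIII (545155 to 545730), GIM4 on chromosome V (148176 to 148599), CIN2 on chromosome XVI (95372 to 96258) and PAC2 on chromosome V (164527 to 166083). No annotated gene overlaps a member.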

How the data were processed

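PAT-seq libraries of 2 strains, 10 each, were grouped by the strain and time labels, to which the names of the table columns were matched. The authors deposited raw read counts per feature, raw counts of poly(A) reads, and a score per feature, the mean tail length in nt. Per the submitters' processing notes, Bowtie2 2.2.5, Bowtie and build sacCer3 were used, in roles they do not give. The counter, its annotation, strand setting and filters are not given in the sources used here.

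For read counts, the robust quasi-likelihood test of edgeR 4.0.16 with TMM scaling was run in R 4.3.3 on features averaging 10 reads or more. The strain difference took time point as a factor, and time courses a natural spline with 5 degrees of freedom per strain. Tails were compared with limma 3.58.1, using values backed by 10 poly(A) reads or more, in features with 8 such values per strain (7 for time, with a spline of 3 degrees of freedom). All p-values were adjusted over all features tested (Benjamini-Hochberg, 0.05). DESeq2 1.42.0 and limma-voom were alternatives. The edgeR fits and the limma fits of tails were also run at their main settings on simulated data, and the alternatives were not. The simulated counts held no late shift in library composition. CPM in the text are scaled over all features, and the fits over the features tested.

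All 10 members are named throughout. SET1 checks the deletion, CLN2, SIC1 and CLB2 give timing, called pathway genes are named, and each member has its nearest pattern by Pearson correlation, apart from a few items that are not reported here. Members and lists were chosen with earlier results of these data known. Protein sequences were planned and are not used here.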

Additional observations from a re-analysis of the deposited data

Results flagged for a closer look

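Of 40 sets of values, read counts and tail lengths of the 10 genes in each strain, 3 held a library far from the other 9. Chance flags about 1 set in 20, and the libraries are time points, so a single peak also stands apart. CIN2 had 65.7 CPM in set1Δ at 30 min, CIN4 had 89.7 CPM in WT at 120 min and GIM5 had 107 CPM in WT at 105 min. Of 86 GIM5 reads in the last library 46.5% had a tail (95% Wilson interval 36.3% to 57.0%).

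The course over time differed between strains for CIN4 (edgeR adjusted p = 0.0202) and YKE2 (edgeR adjusted p = 0.00129) by the test of the strain-by-time terms. Neither passed when 105 and 120 min were left out of both strains, a setting that also lowered the calls over all features, while with 1 time point left out YKE2 passed in 9 of 9 fits and CIN4 in 6 of 9.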

How the results depend on the processing

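The edgeR strain difference called 1 member lower, GIM4, and 0 higher. It called 2 lower in poly(A) reads only, in DESeq2, with the share of poly(A) reads as a covariate (YKE2 in each, edgeR or DESeq2 adjusted p = 0.0268, 0.0446 and 7.19e-04) and without 105 and 120 min (PAC2), and 0 (without 75 min) to 2 (YKE2 without 15 or 30 min, edgeR adjusted p = 0.0349 and 0.0355) when 1 time point was left out. Without the time term, the replicate block of this design, GIM4 missed (−0.43, edgeR adjusted p = 0.0634) and YKE2 passed (−0.66, edgeR adjusted p = 0.0277). Time points pair the strains by design, in minutes and not in cell-cycle phase: CLN2 first peaked at 15 min in set1Δ and at 30 min in WT. A shift in timing and a change in level were not tested apart. The members changing over time in WT numbered 4, against 2 in poly(A) reads only and 1 without 105 and 120 min; in set1Δ 1, against 0 with a spline of 3 degrees of freedom and 0 to 1 in the leave-outs. The difference of profiles called 2, against 1 in poly(A) reads only or with 3 degrees of freedom, 0 without 105 and 120 min and 1 to 3 in the leave-outs (the additional one was GIM3 without 105 min, edgeR adjusted p = 0.0363). Tail change over time called 0, and 1 with weights by poly(A) reads (YKE2, limma adjusted p = 0.0482). The causes were not tested.

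Signs turned only for differences that passed in no setting. In counts these were CIN4 (0.22 in poly(A) reads only, 0.18 without 105 and 120 min, −0.17 to 0.12 in the leave-outs), RBL2 (0.081 without both late times, −0.069 to 0.063) and GIM3 (−0.075 without both, −0.013 to 0.14). In tails they were PAC10 (0.47 nt without both late times, −1.07 to 0.11 nt), YKE2 (−1.28 nt, −0.44 to 1.15 nt), PAC2 (0.38 nt without the time term, 0.63 nt from 5 poly(A) reads, 0.25 nt with weights, −1.72 to 1.75 nt), GIM5 (−1.34 to 0.28 nt) and RBL2 (−0.67 to 0.64 nt). Counts over all features moved by over 1.5 times in all 6 comparisons. Profile differences numbered 628, against 111 in poly(A) reads only, 136 without both late times, 283 with 3 degrees of freedom and 200 to 812 in the leave-outs. Changes over time in set1Δ numbered 793, against 382 and 217 with 4 and 3 degrees of freedom and 359 to 996 in the leave-outs, and in WT 1978, against 1025 in poly(A) reads only and 1219 without both late times. The strain difference called 427 higher and 533 lower, against 700 and 805 with the covariate, 657 and 708 without both late times, 680 and 707 without 120 min and 267 and 360 without the time term. Shorter tails numbered 4, against 45 with weights, 27 from 20 poly(A) reads, 23 without the time term, 1 from 5 poly(A) reads or without both late times and 0 to 6 in the leave-outs. Tail changes over time numbered 183, against 345 with weights, 115 from 5 poly(A) reads and 48 to 216 in the leave-outs. CIN1 and PAC2 are limited by depth.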
